A study of Macaca mulatta with 6 samples.

Results

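Heat shock proteins, J-domain cochaperones of the DNAJ family and subunits of the cytosolic chaperonin were examined as a group. They were taken by gene symbol alone: those starting with HSPA, HSPB, HSPD, HSPE, HSPH, HSP90 or DNAJ, and TCP1, CCT2, CCT3, CCT4, CCT5, CCT6A, CCT7 and CCT8. Each had to be the only symbol of a probe set in the array's annotation. The rule took 128 of 24956 probe sets with 1 symbol, for 57 of 14132 genes. Of these, 88 probe sets and 48 genes passed the filter on low values and were tested. The 57 genes comprised 8 of the HSP70 family (HSPA genes and HSPH1), 3 HSP90 genes, 5 small heat shock proteins, 7 chaperonin subunits, and 4 DNAJA, 9 DNAJB and 19 DNAJC genes. HSPBP1 and HSPBAP1, which bind HSP70 and HSPB1 and are no heat shock proteins themselves, were also taken and are kept apart. HSPA1A, HSPA1B, HSPA5, HSPA13, HSPB1, HSPD1, HSPE1, DNAJC5 and CCT3 were not named on a probe set of their own and are not analysed here. The inducible HSP70 genes HSPA1A and HSPA1B, the endoplasmic reticulum HSP70 BiP and the mitochondrial chaperonin are among them.

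Molecular chaperones keep newly made and damaged proteins in a foldable state. HSP70 proteins bind exposed hydrophobic stretches and work through cycles of ATP use that J-domain proteins of the DNAJ family start and nucleotide exchange factors complete. Clients such as the estrogen and progesterone receptors pass from HSP70 to HSP90, which holds the unliganded receptor ready to bind steroid. Small heat shock proteins hold unfolded proteins without using ATP, and the cytosolic chaperonin, a double ring of TCP1 and CCT subunits, encloses actin, tubulin and other proteins while they fold. In neurons HSC70 and the J-domain protein auxilin also strip clathrin from recycled synaptic vesicles.

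Serotonin neurons of the dorsal raphe nucleus were isolated by laser capture from female rhesus macaques that had carried steroid-filled or placebo Silastic capsules subcutaneously for 1 month. The groups were estrogen with progesterone (EP), estrogen alone, and placebo, with 2 samples each and 1 array per sample. Only the placebo titles add the word Ovx, read here as ovariectomized; the hormone titles give the hormones. Ages and doses are not given in the labels used here. Values are printed for samples 1 and 2 of each group in that order, as deposited signal in arbitrary units, scaled by the authors to about the same mean on every array.

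The arrays differed in more than treatment. Median signal over probe sets was 73.8 and 170.5 in EP, 49.0 and 68.9 in estrogen, and 160.5 and 159.8 in placebo samples. The authors' scaling thus equalized means and not medians, and deposited signals are compared here without a correction for this. EP 2 stood apart: 28.7% of its probe sets were above its floor, set at the 95th percentile of 59 probe sets that have no monkey target, against 49.6% for EP 1, 62.2% and 58.5% in estrogen samples, and 37.3% and 36.3% in placebo samples. The signal of the 3' probe set of GAPDH was 22.0 and 287 times that of its 5' probe set in EP, 28.01 and 3.41 times in estrogen, and 2374 and 1413 times in placebo samples. Summed signal of 7 astrocyte markers was 76958 and 3812 in EP, 66753 and 76662 in estrogen and 21932 and 23559 in placebo samples. Summed signal of 6 neuronal markers was 25408 and 2275 in EP, 28414 and 30027 in estrogen and 7742 and 12299 in placebo samples. That of the 2 oligodendrocyte markers named here, MBP and CNP, was 48277 and 2349 in EP, 34940 and 51122 in estrogen and 32403 and 45620 in placebo. Summed signal of 6 serotonin markers was 1387 and 1488 in EP, 1537 and 852 in estrogen and 1797 and 1628 in placebo samples. FEV, the transcription factor of these neurons, and GATA3 were above the floor on 6 arrays, GATA2 on 5, SLC18A2 on 4 and HTR1A on 1, and TPH2, the serotonin-making enzyme, only on the 2 estrogen arrays. No marker was at 0. Astrocyte and neuronal sums were higher on both estrogen arrays and EP 1 than on the placebo arrays and EP 2, while the oligodendrocyte sums of estrogen and placebo overlapped. The part of these differences in the results was not tested. In captured tissue, fewer cells of a type and less RNA per cell cannot be told apart.

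Detection of chaperone genes followed that of all genes. The number above the floor, of 57, was 51 and 21 in EP samples, 54 and 53 in estrogen samples, and 38 and 40 in placebo samples. Of the 48 tested members 47 and 20 were above it in EP, 48 and 48 in estrogen, and 37 and 38 in placebo. Among all tested genes these shares were 91.2% and 44.5% in EP, 97.0% and 94.1% in estrogen, and 68.4% and 67.6% in placebo. On all 6 arrays 15 genes were above the floor, and DNAJB8 was above it on none. Over the 48 tested genes, normalized log2 levels of EP 1 and estrogen 1 correlated at 0.952, those of the 2 estrogen arrays at 0.899 and those of the 2 placebo arrays at 0.804. EP 2 correlated with the other 5 arrays at 0.0827 to 0.360. Each of these coefficients is a Pearson r over genes that share an array, given as a description.

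**Figure D1:**
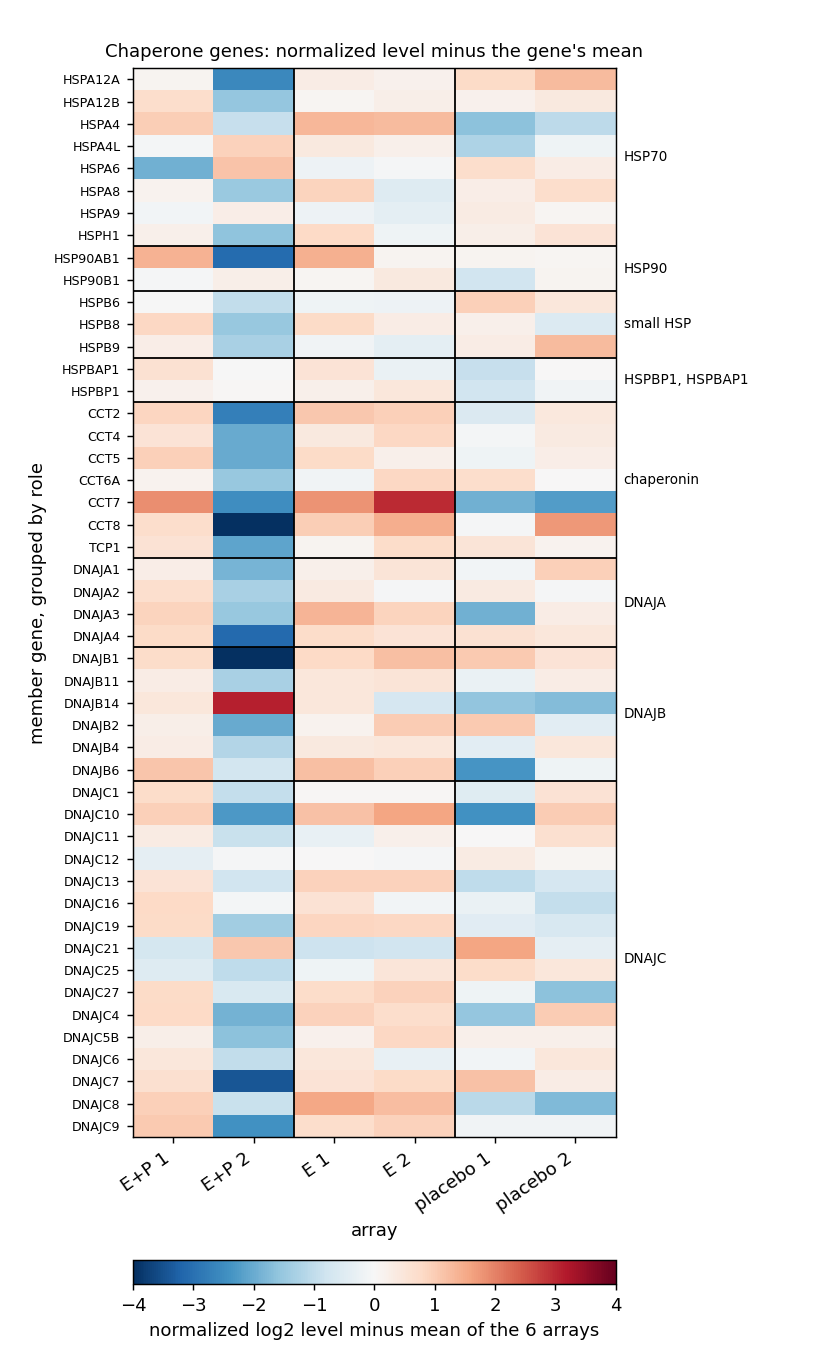
Normalized log2 level of the 48 tested chaperone genes (rows, grouped by role) on the EP (E+P), estrogen (E) and placebo arrays (columns), as colour for the difference from the gene's mean over the 6 arrays; differences past the ends of the scale take its end colour. EP 2 is blue in most rows, with DNAJB14 the reddest cell of that column.

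Among the HSP70 genes, HSPA8 encodes HSC70, the constitutive cytosolic HSP70. Its signal was 11678 and 841 in EP samples, 13169.5 and 6759.6 in estrogen samples, and 5926 and 10693 in placebo samples. The estrogen and placebo samples overlapped and EP 2 was far below all others. HSPA4, HSPH1 and HSPA4L belong to the HSP110 branch, which releases ADP from HSP70 and so lets go of its client. HSPA4 had 572 and 203 in EP, 899 and 771 in estrogen, and 113 and 172 in placebo, so both estrogen samples lay above both placebo samples. HSPH1 had 1848 and 357 in EP, 3345 and 1248 in estrogen, and 863 and 1114 in placebo. HSPA4L had 110.2 and 349 in EP, 153 and 149 in estrogen, and 94.8 and 203 in placebo, with the 3 groups overlapping in signal. Both of its placebo samples were below the floor and the 4 hormone samples above it, so its placebo level is not measured. HSPA9 is mortalin, the HSP70 of the mitochondrial matrix, and its signal was nearly level: 613 and 505 in EP, 610.2 and 483 in estrogen, and 558 and 499.9 in placebo. HSPA12A, a distant relative of the HSP70s, had 1570.2 and 235 in EP, 2041 and 1594 in estrogen, and 1169.8 and 1783 in placebo. Stress-inducible HSPA6 had 25.4 and 400.1 in EP, 88.6 and 133 in estrogen, and 321 and 275 in placebo, and was below the floor on EP 1 alone.

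HSP90AB1 encodes the constitutive cytosolic HSP90, which holds steroid receptors. It had 13387 and 379 in EP, 11677 and 5487 in estrogen, and 2409 and 2831 in placebo. Both estrogen samples and EP 1 were above both placebo samples, and EP 2 was the lowest of the 6. HSP90B1, the HSP90 of the endoplasmic reticulum, had 696 and 512 in EP, 871 and 1061 in estrogen, and 349 and 521 in placebo. HSP90AA1, the inducible cytosolic HSP90, had 135 and 76.5 in EP, 113 and 68.4 in estrogen, and 17.2 and 224 in placebo, and did not pass the filter. Its groups overlapped.

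Small heat shock proteins ran in different directions. HSPB8, which works with BAG3 to send misfolded proteins to autophagy, had 1803 and 291 in EP, 1828 and 1076 in estrogen, and 577 and 401 in placebo. HSPB6, also called HSP20, had 348 and 259 in EP, 306 and 317 in estrogen, and 562 and 438 in placebo. HSPB9 had 112 and 63.8 in EP, 54.3 and 60.4 in estrogen, and 217 and 332 in placebo. For HSPB6 and HSPB9 all 4 hormone samples were below both placebo samples in deposited signal, but HSPB9 was below the floor on EP 2, so that sample cannot be ranked. The other members, HSPB3 and HSPB7, did not pass the filter.

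The chaperonin subunits had a common pattern across the arrays. CCT2 had 2659.6 and 194 in EP, 3419 and 2649.9 in estrogen, and 478 and 859 in placebo. CCT8 had 1315 and 10.3 in EP, 1875 and 2365 in estrogen, and 459 and 1409.6 in placebo. In both genes EP 2 was below its floor and far under EP 1, and both estrogen samples were above both placebo samples in deposited signal. CCT7 had 398 and 9.31 in EP, 405 and 1231 in estrogen, and 23.3 and 13.4 in placebo; it was below the floor on EP 2 and both placebo arrays. CCT4 had 2334 and 301 in EP, 2209 and 2680.4 in estrogen, and 682 and 930.2 in placebo, and CCT5 had 3631 and 315 in EP, 3350.2 and 1787 in estrogen, and 694 and 941 in placebo. CCT6A had 1982 and 385 in EP, 1620.2 and 3122 in estrogen, and 1269 and 831 in placebo. TCP1, the alpha subunit, had 1943 and 261 in EP, 1378 and 2037 in estrogen, and 841 and 679.5 in placebo. In all 7 subunits both estrogen samples were above both placebo samples in deposited signal, as in 34.7% of all tested genes, and in normalized level this held for 3 of 7 (30.6% of all). EP 2 was the lowest sample of each subunit apart from CCT7, where it cannot be ranked against the placebo samples.

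The J-domain genes varied in pattern. DNAJA1, a cytosolic partner of HSP70, had 1819 and 317 in EP, 1870.5 and 2093 in estrogen, and 675 and 1423 in placebo. DNAJB1, the main HSP40 of the heat shock response, had 1282 and 21.0 in EP, 1465 and 1800.2 in estrogen, and 796 and 604 in placebo. DNAJB6, which keeps polyglutamine proteins from aggregating, had 726 and 239.6 in EP, 870.4 and 656 in estrogen, and 62.4 and 283 in placebo. In these 3 genes both estrogen samples were above both placebo samples in deposited signal, as in 34.7% of all tested genes. In normalized level this held for DNAJB6, while DNAJA1 and DNAJB1 overlapped, with differences of -0.07 and 0.20. DNAJC6 encodes auxilin, which brings HSC70 to clathrin coats, and had 5336 and 602 in EP, 5278 and 2584 in estrogen, and 1357 and 2264 in placebo. DNAJC8, a splicing-associated J protein, had 658 and 231 in EP, 1319 and 878 in estrogen, and 191 and 115 in placebo. DNAJC10 is ERdj5, a disulfide reductase of the endoplasmic reticulum, and had 1582 and 165 in EP, 2109 and 2512 in estrogen, and 142 and 818 in placebo. DNAJC8 and DNAJC10 thus had higher signal in both estrogen samples than in any EP or placebo sample. DNAJB14, a J protein of the endoplasmic reticulum membrane, had 515 and 1026 in EP, 573 and 173 in estrogen, and 162 and 145 in placebo. Here EP 2 was the highest sample and both placebo samples were below the floor. DNAJC21, which takes part in ribosome assembly, had 167 and 524 in EP, 132 and 164 in estrogen, and 775 and 303 in placebo.

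**Figure D2:**
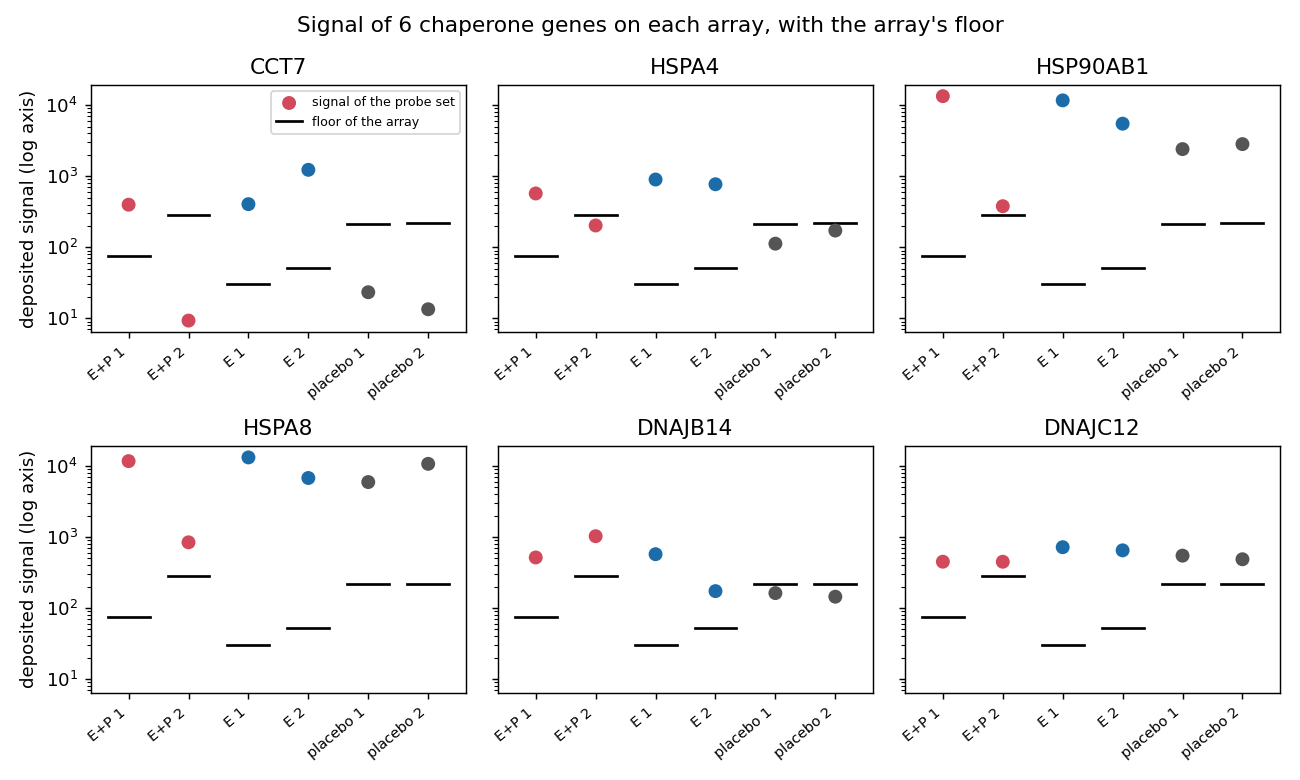
Deposited signal (log axis, arbitrary units) of CCT7, HSPA4, HSP90AB1, HSPA8, DNAJB14 and DNAJC12 on each EP (E+P, red), estrogen (E, blue) and placebo (grey) array, 1 point per array, with each array's floor as a black line. EP 2 is the lowest point for HSP90AB1 and HSPA8 and the highest for DNAJB14. DNAJC12 has the narrowest spread, with both estrogen points above and both EP points below the placebo points.

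Estrogen against placebo was tested to ask whether 1 month of estrogen alone altered these genes. No probe set passed an adjusted p of 0.05 (limma, Benjamini-Hochberg over 26383 probe sets; percent called 0), so none of the 88 chaperone probe sets did, and their smallest adjusted p was 0.635. At an unadjusted p under 0.05, 11 of the 88 chaperone probe sets (12.5%) stood beside 2065 of all probe sets (7.83%). In normalized log2 level 31 of 48 genes were above 0 for estrogen minus placebo, with a median difference of 0.39, against 60.6% of 9781 tested genes and their median of 0.28. Without quantile normalization 40 of 48 were above 0 with a median of 1.02, against 57.5% and 0.26 for all genes, so the gap between the medians was 0.77 there and 0.11 with it. Both estrogen samples lay above both placebo samples in 19 of the 48 (39.6%, against 30.6% of all tested genes) and below them in 7 (14.6%, against 19.8%). In deposited signal, without normalization, 32 genes (66.7%, against 34.7%) had both estrogen samples higher and 6 (12.5%, against 27.7%) had both lower.

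The chaperonin genes were above 0 in 6 of 7, with a median log2 difference of 0.44, and DNAJB genes in 6 of 6 with a median of 0.44. DNAJC genes were above 0 in 9 of 16 (median 0.57), DNAJA genes in 3 of 4 (median 0.05) and both tested HSP90 genes were above 0 (median 0.63). HSP70 genes had a median of -0.21, with 2 of 8 above 0, and this median was above 0 without quantile normalization (0.17), after median centring (1.42) and after scaling to hybridization controls (2.61), where the medians of all genes were 0.26, 1.503 and 2.62. Small heat shock proteins had a median of -0.89 with 1 of 3 above 0, and theirs was above 0 after median centring (0.60) and hybridization control scaling (1.76), below the all-gene medians.

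The largest positive log2 differences with groups that did not overlap belonged to CCT7 (4.48 ± 1.29, SE), DNAJC8 (2.81 ± 0.91), HSPA4 (2.64 ± 0.91), DNAJB6 (2.35 ± 1.02) and DNAJC10 (2.07 ± 1.33). Their adjusted p in limma lay between 0.635 and 0.687. With array weights in limma, CCT7 (adjusted p = 0.0326) and 1 probe set of HSP90AB1 (adjusted p = 0.0406) passed, beside 434 of all probe sets. The first 4 were the genes with an unadjusted p under 0.05 in limma, all higher in estrogen. Of all genes 3.68% were higher and 1.24% lower at that level, and 0 of the 48 members were lower. The filter used the mean over the 6 arrays. CCT7 was at 4.94 and 4.61 on placebo arrays and passed through both estrogen arrays and EP 1 (8.65, 9.85 and 8.70). Of members that did not pass, DNAJB5, DNAJC17 and DNAJC28 had both estrogen samples above both placebo samples. DNAJB7, DNAJB8 and DNAJC22 had both below, all in normalized level. Because both placebo samples were below the floor, CCT7 was at least 3.55-fold, DNAJC8 at least 4.63-fold and HSPA4 at least 3.84-fold higher in estrogen in normalized level. For this bound each placebo array counts at its floor, or at its measured level where that is higher, and the spread between samples is not allowed for. DNAJC13, an endosomal J protein, was likewise at least 2.29-fold, DNAJB14 at least 1.96-fold and HSPA4L at least 1.27-fold higher in normalized level. In deposited signal the last 2 have no such bound, since the placebo floors were 216 and 221. Both estrogen samples of HSPA4L (153 and 149) and estrogen 2 of DNAJB14 (173) were under them. CCT2 had a difference of 1.11 ± 1.16, HSPB8 of 0.70 ± 0.97, HSP90AB1 of 0.68 ± 1.31 and CCT4 of 0.46 ± 0.99, also without overlap but each smaller than or close to its standard error.

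Negative differences without overlap were smaller. They were found in DNAJC21 (-1.40 ± 0.99), HSPB9 (-1.03 ± 0.90), HSPB6 (-0.89 ± 0.83), HSPA12A (-0.78 ± 1.005), HSPA6 (-0.63 ± 1.06), HSPA9 (-0.50 ± 0.80) and DNAJC12 (-0.21 ± 0.80), all in normalized level. All 7 were above 0 after hybridization control scaling, but so were 96.3% of all tested genes, whose median was then 2.62. For HSPA12A, HSPA9 and DNAJC12 the deposited signals of the groups overlapped or ran the other way, since both estrogen samples of DNAJC12 (718 and 649) exceeded both placebo samples (546 and 486). Median centring turned HSPB6, HSPA12A, HSPA9 and DNAJC12 above 0, and leaving out quantile normalization turned HSPA12A, HSPA9 and DNAJC12. All genes had a median of 1.503 after centring and 0.26 without quantile normalization.

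**Figure D3:**
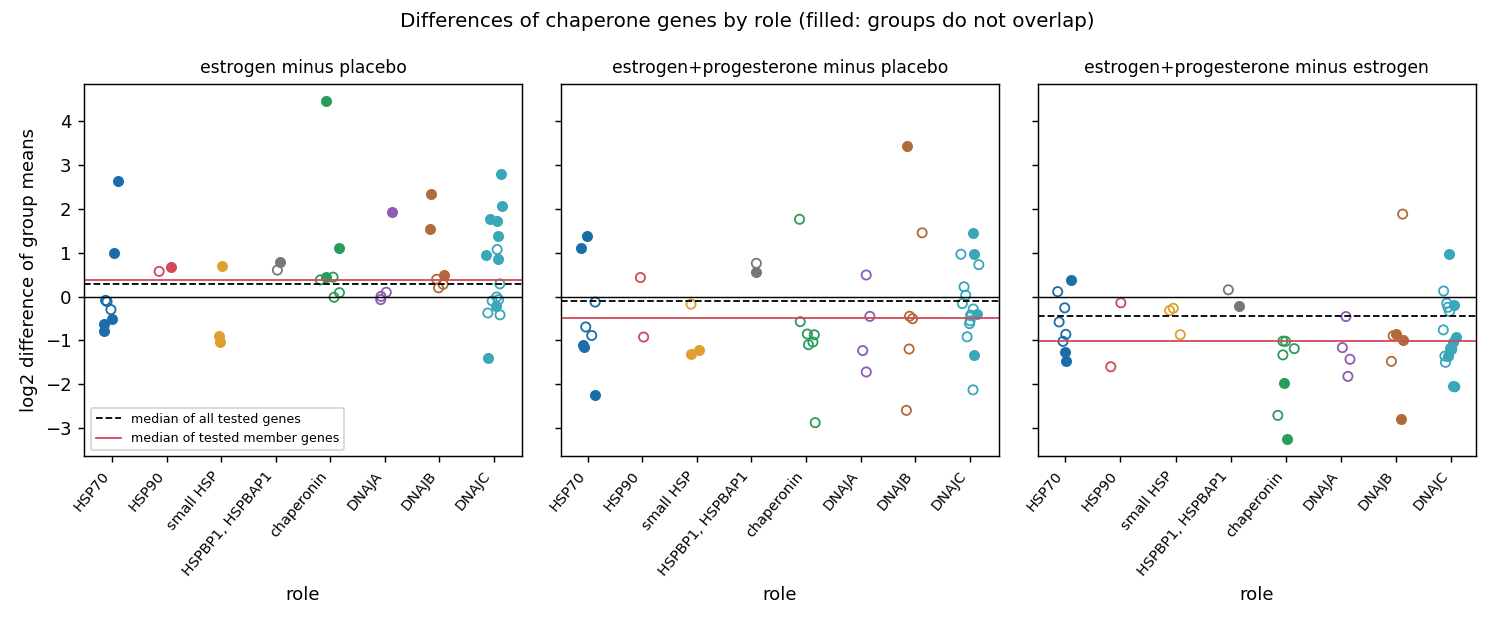
Log2 difference of group means (normalized level) for each of the 48 tested chaperone genes (points), by role, in the 3 comparisons; filled points are genes whose groups do not overlap, and lines mark the medians of the members (red) and of all tested genes (dashed). CCT7 lies highest for estrogen minus placebo at 4.48, DNAJB14 for EP minus placebo at 3.44, and CCT8 lowest for EP minus estrogen at -3.26.

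EP against placebo tested both hormones together, with the same placebo samples as above. Again no probe set passed an adjusted p of 0.05 in limma (percent called 0), and the smallest adjusted p of a chaperone probe set was 0.992. At an unadjusted p under 0.05 there were 3 of 88 chaperone probe sets (3.41%) and 870 of all 26383 (3.3%). In normalized level 15 of 48 genes were above 0, with a median of -0.48, against 46.2% of all genes and a median of -0.10. Groups did not overlap in 6 genes higher in EP (12.5%, against 11.7% of all) and 7 lower (14.6%, against 12.7%), shares close to those of all genes. In deposited signal 6 genes had both EP samples higher (12.5%, against 7.95%) and 5 had both lower (10.4%, against 12.7%). With EP 2 left out, 31 of 48 were above 0 and the median was 0.39, against 63.1% and 0.35 for all genes, and still no probe set passed. The median was also above 0 after median centring (0.42, against 0.33 for all genes) and hybridization control scaling (0.75, against 0.63).

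DNAJB14 had the largest difference, 3.44 ± 1.03 in normalized level (limma unadjusted p = 0.00764, adjusted p = 0.992). Both EP samples were above the floor and neither placebo sample was. Its difference was 2.27 ± 0.81 without EP 2. Over its 3 tested probe sets the difference ran from 0.84 to 3.44 with all 6 arrays. DNAJC8 (1.45 ± 0.91), HSPA4 (1.38 ± 0.91), HSPA4L (1.11 ± 0.86), DNAJC16 (0.98 ± 0.85) and HSPBP1 (0.56 ± 0.81) were the other genes with both EP samples above both placebo samples in normalized level. In deposited signal HSPA4L overlapped between the groups, with both placebo samples below the floor. Without EP 2, HSPA4L was at 0.61 ± 0.78, DNAJC8 at 2.54 ± 0.74, HSPA4 at 2.50 ± 0.72 and CCT7 at 4.02 ± 0.83. For estrogen minus placebo, which shares the placebo samples, DNAJC8 was at 2.81, HSPA4 at 2.64 and CCT7 at 4.48. HSPA4 and DNAJC8 were below the floor on EP 2 and on both placebo arrays.

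In normalized level HSPA12A was the lowest of the genes without overlap, at -2.25 ± 1.005 (limma unadjusted p = 0.0495, adjusted p = 0.992) and at -1.01 ± 0.72 without EP 2. It was the only tested member lower at an unadjusted p under 0.05 in limma, against 1.04% of all genes, and DNAJB14 the only one higher, against 1.34%. DNAJC25 (-1.34 ± 0.82), HSPB9 (-1.30 ± 0.90), HSPB6 (-1.21 ± 0.83, but 0.073 under hybridization control scaling), HSPA8 (-1.16 ± 0.94) and HSPH1 (-1.11 ± 0.92, but 0.19 under median centring and 0.53 under hybridization control scaling) also had both EP samples below both placebo samples in normalized level. DNAJC12 did too (-0.41 ± 0.80), but turned above 0 under median centring and hybridization control scaling. Of these genes, only DNAJC25, DNAJC12, HSPB9 and HSPB6 had both EP samples lower in deposited signal. EP 1 was above 1 or both placebo samples for HSPA12A, HSPA8 and HSPH1. HSPB9 was below the floor on EP 2, so that sample cannot be ranked. Without EP 2, HSPA8 was at -0.30 ± 0.82, HSPH1 at -0.22 ± 0.79, and HSPB9 at -0.56 ± 0.79, closer to 0 than with it. DNAJC25 was then at -1.20 ± 0.74 and HSPB6 at -0.81 ± 0.72.

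EP against estrogen asked what progesterone added to estrogen. No probe set passed an adjusted p of 0.05 in limma (percent called 0), and the smallest adjusted p of a chaperone probe set was 0.799. At an unadjusted p under 0.05 there was 1 of 88 chaperone probe sets (1.14%), against 464 of all (1.76%). In normalized level 42 of 48 genes were below 0, with a median of -1.004, while 34.0% of all genes were above 0 and their median was -0.44. Groups did not overlap in 14 genes lower in EP (29.2%, against 17.9% of all genes) and 2 higher (4.17%, against 13.5%). In deposited signal 21 genes had both EP samples lower (43.8%, against 17.5%) and 3 had both higher (6.25%, against 17.8%). No gene's representing probe set had an unadjusted p under 0.05 in limma, against 0.481% of all genes higher and 0.225% lower. The 7 chaperonin subunits were all below 0, with a median of -1.33, as were the 4 DNAJA genes at a median of -1.30.

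Genes lower without overlap have EP 1 below both estrogen samples by definition, and the size of the median shift rested on EP 2. Without it, with EP 1 alone assumed to vary like the other groups, 19 genes were above 0 and 29 below, with a median of -0.09 against 0.05 for all genes, and no probe set passed. CCT8 had a difference of -3.26 ± 1.53 with EP 2 and -0.58 ± 0.98 without it. For DNAJB1 the values were -2.80 ± 1.40 and -0.28 ± 0.73, for CCT2 -1.97 ± 1.16 and -0.20 ± 0.79, for DNAJC10 -2.04 ± 1.33 and -0.48 ± 1.45, and for HSPA12A -1.47 ± 1.005 and -0.15 ± 0.72. CCT8, DNAJB1, CCT2, DNAJC10 and HSPA12A were below the floor on EP 2. Without EP 2, chaperonin genes had a median of -0.20 and DNAJA genes of 0.01. With EP 2 as the only EP sample, assumed to vary like the other groups, 3599 of 26383 probe sets passed in limma (13.6%), 16 of 86 chaperone probe sets among them, 15 lower and DNAJB14 higher by 3.01.

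Higher in normalized level in both EP samples than in both estrogen samples were DNAJC21 (0.97 ± 0.99) and HSPA9 (0.38 ± 0.80), each within about its standard error and below 0 under hybridization control scaling, HSPA9 also under median centring. In deposited signal HSPA9 overlapped between these groups. Without EP 2 they were at 0.10 ± 1.01 and 0.22 ± 0.70.

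**Figure D4:**
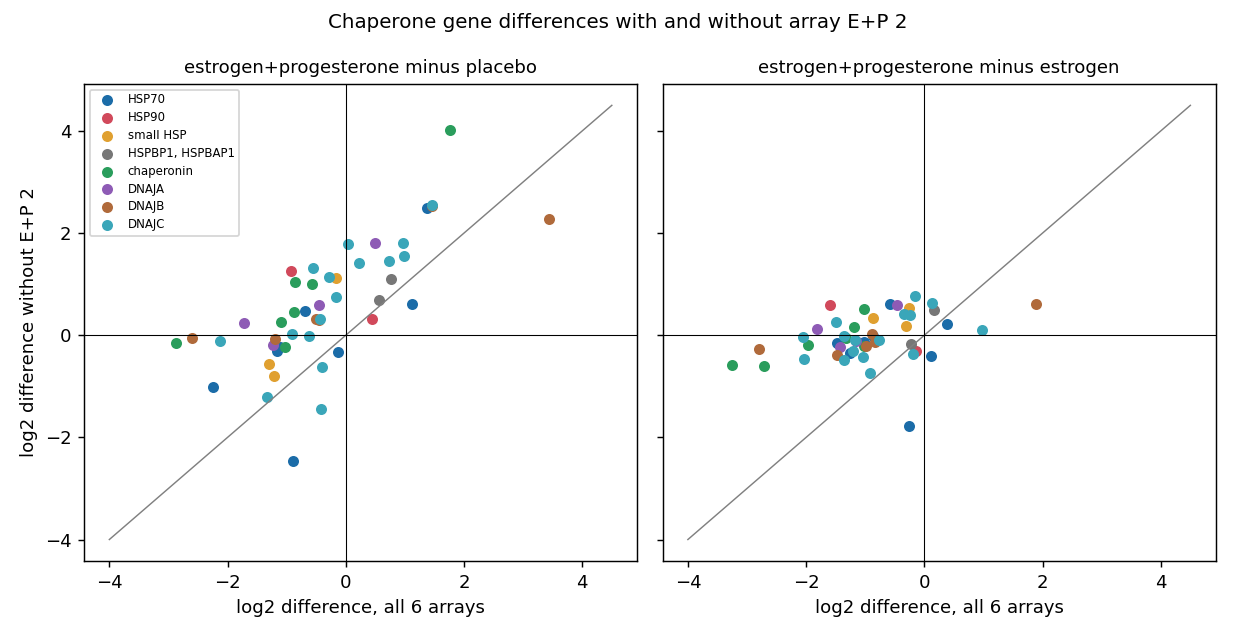
Log2 difference of each of the 48 tested chaperone genes with all 6 arrays (horizontal axis) and without EP 2 (vertical axis), for EP minus placebo (left) and EP minus estrogen (right); colours mark the roles and the diagonal marks equal values. In the right panel most genes lie left of 0 and close to 0 in height, with a median of -0.09 without EP 2.

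Members also differed in how far they ranged over the 6 arrays. The steadiest was DNAJC12, a J protein known to work with the aromatic amino acid hydroxylases, tryptophan hydroxylase among them; it is singled out here after its values were seen. Its signal was 449 and 448 in EP, 718 and 649 in estrogen, and 546 and 486 in placebo, and its normalized level covered 0.67 log2 units. Only 1.29% of tested genes covered less, yet its groups did not overlap in any of the 3 comparisons. HSPA9 covered 0.72 (1.59% covered less), HSP90B1 1.17 (8.63%) and HSPBP1, an inhibitor and exchange factor of HSP70, 1.22 (9.71%). These 4 were above the floor on all 6 arrays. At the other end CCT8 covered 6.51, DNAJB1 5.55 and CCT7 5.47. Each of these ranges runs down to a level on EP 2 that was below that array's floor, so its size is not measured at the low end.

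Of the members, 25 had 2 or more tested probe sets, and these often gave different answers for 1 gene. All probe sets of a gene shared a sign in 15 of 25 genes for estrogen minus placebo, 10 for EP minus placebo and 18 for EP minus estrogen. The median spread between a gene's probe sets was 1.03, 0.97 and 0.99 log2 units in these comparisons. The 3 tested probe sets of HSP90AB1 gave 0.68, 2.29 and 3.59 for estrogen minus placebo and -0.92, -0.85 and 3.26 for EP minus placebo. The other 2 tested probe sets of TCP1 gave 2.42 and 2.64 for estrogen minus placebo, where the one used above gave 0.09. Those of HSPH1 gave 2.36 and 2.06 where the one used gave -0.09, and the other one of HSPA9 gave 1.47 where the one used gave -0.50. The other of DNAJC21 gave 0.57 where the one used gave -1.40. By contrast all 9 tested probe sets of CCT2 were above 0 for estrogen minus placebo, between 0.36 and 2.56, and all 3 of DNAJB14 were above 0 against placebo in both hormone groups. The 3 of HSPA4 ran from 0.89 to 2.65 for estrogen minus placebo. Probe sets of 1 gene can match different stretches or transcripts of it, some match relatives as well, and their placement along the transcript is not given in the sources used here.

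**Figure D5:**
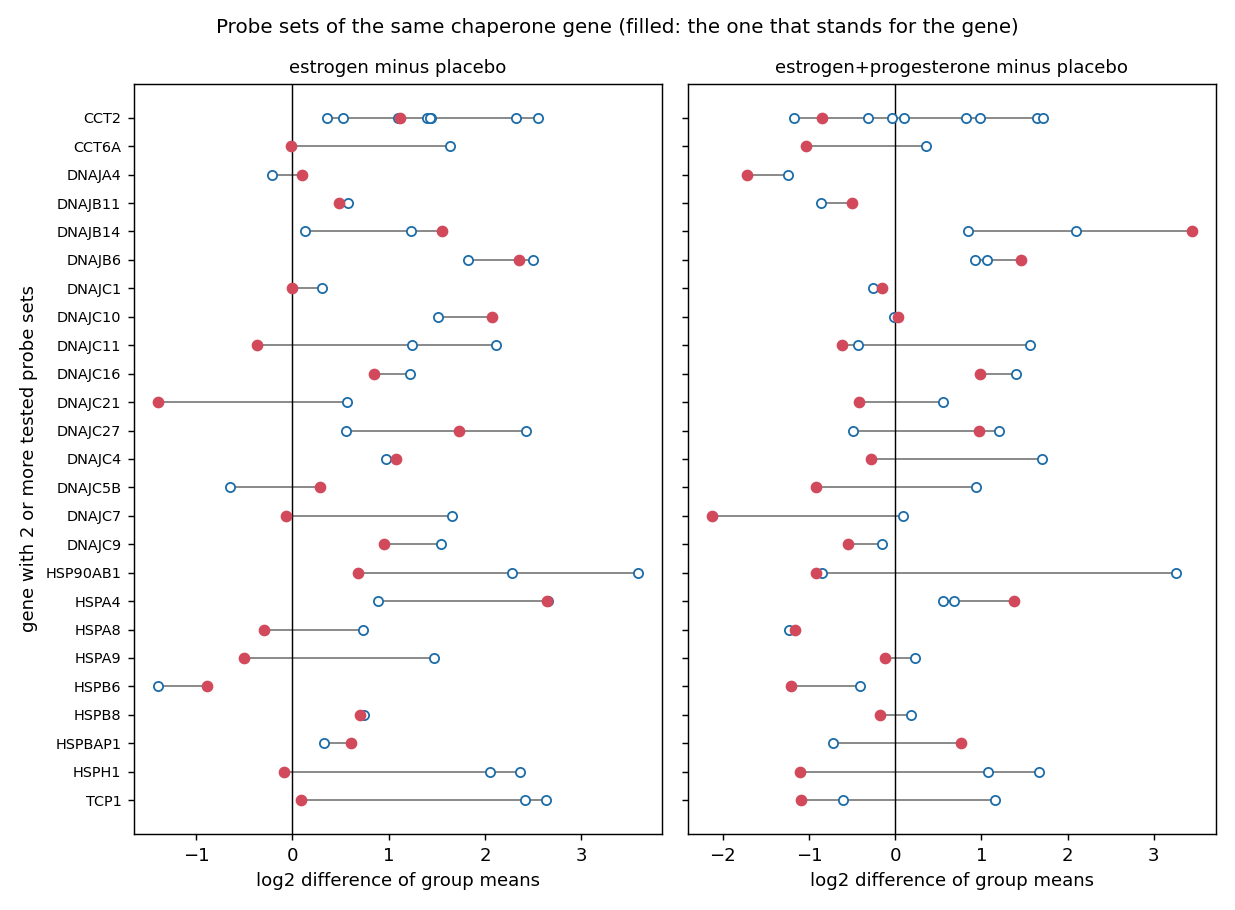
Log2 difference of each tested probe set (points) of the 25 chaperone genes with 2 or more, 1 row per gene, for estrogen minus placebo (left) and EP minus placebo (right); the filled red point is the probe set that stands for the gene. Probe sets of HSP90AB1, TCP1 and HSPH1 lie far apart, whereas those of CCT2 all lie above 0 for estrogen minus placebo.

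Of 55 partner genes of the chaperone system that are not members (heat shock factors, BAG and HSP90 cochaperones, prefoldin subunits, and folding enzymes of the endoplasmic reticulum and mitochondria), 45 were on the array and 41 were tested, and none passed an adjusted p of 0.05 in limma in any comparison. At an unadjusted p under 0.05 there were 3 for estrogen against placebo, 1 for EP against placebo and 0 for EP against estrogen, beside 3.68%, 1.34% and 0.481% of all genes higher and 1.24%, 1.04% and 0.225% lower. For estrogen minus placebo 32 of the 41 were above 0 with a median log2 difference of 0.47, against 60.6% of all genes and 0.28. For EP minus placebo 20 were above 0 (median -0.02), against 46.2% and -0.10, and for EP minus estrogen 9 (median -0.63, and 0.01 without EP 2), against 34.0% and -0.44. The members' medians in these comparisons were 0.39, -0.48 and -1.004.

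P4HB, a disulfide isomerase of the endoplasmic reticulum, had 593 and 134 in EP, 673 and 738 in estrogen, and 196 and 52.5 in placebo. BAG6, which guards newly made membrane proteins, had 223 and 501 in EP, 239 and 859.9 in estrogen, and 14.9 and 241 in placebo. PFDN5, a subunit of prefoldin, which hands actin and tubulin to the chaperonin, had 2178 and 182 in EP, 1663 and 2585 in estrogen, and 532 and 109 in placebo. These 3, together with TRAP1 and BAG3, had both estrogen samples above both placebo samples in normalized level. The genes of this paragraph were chosen for groups that do not overlap. Of the 41 tested partner genes 14 were higher in estrogen than in placebo in this way and 5 lower, against 30.6% and 19.8% of all tested genes. For EP against estrogen 8 of the 41 were lower in EP and 3 higher, against 17.9% and 13.5% of all tested genes. In deposited signal BAG6 overlapped between estrogen and placebo. TRAP1, the mitochondrial HSP90, had 215 and 234 in EP, 181 and 277 in estrogen, and 148 and 42.6 in placebo. BAG3, the partner of HSPB8, had 431 and 45.1 in EP, 689 and 344 in estrogen, and 65.4 and 301 in placebo. CLPX, a mitochondrial unfoldase, had 419.5 and 63.3 in EP, 807 and 891 in estrogen, and 257 and 557 in placebo, and both its EP samples were below both estrogen samples in normalized level. P4HB and TRAP1 were below the floor on EP 2 and both placebo arrays. PFDN5 was below it on EP 2 and placebo 2, BAG3 on EP 2 and placebo 1, BAG6 on placebo 1, and CLPX on EP 2.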

How the data were processed

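Per the labels' protocols, RNA of the captured neurons was purified on Qiagen columns and given a biotin label with an Enzo kit. Values are deposited as 1 linear intensity for each probe set on each array. The authors had scaled each array to a mean of about 200 after trimming 2% at each end, as the values show; the summarization software is not given in the sources used here. Apart from controls there were 52766 probe sets, and the platform annotation gave 1 symbol for 24956, several for 361 and none for 27449.

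Intensities plus 16 were taken to log2 and quantile normalized, so differences understate changes of low signals. The part at or past the 50th percentile of mean level was tested, 26383 probe sets in all. Group means over all 6 arrays were fitted with limma 3.58.1 in R 4.3.3 (3 residual degrees of freedom, two-sided moderated tests, Benjamini-Hochberg adjustment). A gene is represented by its probe set with the highest mean. No exact permutation test was run, since 0.333 is the smallest p that 2 against 2 samples allow. Where the samples of a group are not separate animals, p-values measure only the spread between samples. The number of arrays limits the precision. The fit was tested on simulated data.

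Named genes are a fixed set of 29 chaperones, of which 20 were on the array, the 5 with the highest mean, and up to 5 in each direction per comparison whose groups do not overlap, with up to 6 partner genes chosen likewise. Members and lists were chosen with earlier results of these data known. Alternatives were other offsets (1 and 64), filters, scalings, array weights, a trended prior, the mean of a gene's probe sets, 2 groups alone, the replicate number as a block, and each array left out; scaling to 27 hybridization control probe sets was added after seeing the data.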

Additional observations from a re-analysis of the deposited data

How the results depend on the processing

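No chaperone probe set passed an adjusted p of 0.05 in limma under any setting but 2. With array weights 434 probe sets passed for estrogen against placebo, 2 chaperone probe sets among them, CCT7 at 4.48 (adjusted p = 0.0326) and 1 of HSP90AB1 at 3.59 (adjusted p = 0.0406). Leaving out each array in turn gave 0 to 3599 probe sets and 0 to 16 chaperone probe sets for EP against estrogen, all of them without EP 1, where EP 2 alone is assumed to vary like the other groups. The members' median over these fits ran from -1.72 to -0.086 for EP minus estrogen, from -1.35 to 0.46 for EP minus placebo and from 0.23 to 0.56 for estrogen minus placebo. Medians over the members tested in each setting were 2.29, -1.83 and 0.47 after median centring and 3.46, -2.62 and 0.80 after hybridization control scaling, for estrogen minus placebo, EP minus estrogen and EP minus placebo in that order. All genes shifted too: the medians of all genes were 1.503, -1.11 and 0.33 after centring and 2.62, -1.94 and 0.63 after hybridization control scaling.

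Differences that turned sign were these, and their cause was not tested. Without quantile normalization, estrogen minus placebo was 0.39 for DNAJC12, 0.32 for HSPA12A and 0.038 for HSPA9. After median centring it was 1.64 for DNAJC12, 1.56 for HSPA12A, 1.28 for HSPA9 and 0.60 for HSPB6, EP minus placebo was 0.25 for DNAJC12 and 0.19 for HSPH1, and EP minus estrogen was -0.77 for HSPA9. With the mean of a gene's probe sets, HSPA9 had 0.48 for estrogen minus placebo and -0.43 for EP minus estrogen, and HSPH1 had 0.55 for EP minus placebo. After hybridization control scaling, estrogen minus placebo was 2.83 for DNAJC12, 0.74 for DNAJC21, 2.79 for HSPA12A, 0.98 for HSPA6, 2.47 for HSPA9, 1.76 for HSPB6 and 0.24 for HSPB9. EP minus placebo was then 0.56 for DNAJC12, 0.073 for HSPB6 and 0.53 for HSPH1, and EP minus estrogen was -0.68 for DNAJC21 and -1.64 for HSPA9.

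Samples of different groups share only a replicate number. With that number as a replicate block, 0 probe sets passed in each comparison, as without it. Deviations of same-numbered samples from their group means correlated at -0.03, -0.06 and 0.08. With 2 samples in a group these values cannot decide whether the numbers pair the samples.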

Other observations

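Some related genes outside the rule are given here, chosen after their values were seen. CRYAB, a small heat shock protein under another name, had a signal of 11926 and 488 in EP samples, 10794 and 8754 in estrogen samples and 2428 and 1324 in placebo samples. HSF1, the main heat shock transcription factor, had 104 and 95.3 in EP, 162 and 260.5 in estrogen and 233 and 331 in placebo. STIP1, also called HOP, which links HSP70 to HSP90, had 335 and 282 in EP, 364 and 919.8 in estrogen and 659 and 414 in placebo. Both were below the floor on EP 2, so that sample cannot be ranked for HSF1. PTGES3, the HSP90 cochaperone p23, had 186 and 272 in EP, 66.4 and 102 in estrogen and 123 and 168 in placebo, and was above the floor only on EP 1 and both estrogen arrays. FKBP5, a cochaperone of HSP90 in steroid receptor complexes, had 13.9 and 189 in EP, 22.5 and 4.53 in estrogen and 259 and 422 in placebo. It was above the floor only on the 2 placebo arrays and did not pass the filter on low values, so it was not tested.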
